A study of Mus musculus with 8 samples.

Results

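The genes described here are 10 genes of fatty acid oxidation, chosen by name from the 22274 genes of the deposited count table: the carnitine palmitoyltransferases Cpt1a, Cpt1c and Cpt2, the acyl-CoA dehydrogenases Acadm, Acadl and Acadvl, the trifunctional protein subunits Hadha and Hadhb, and the transcriptional regulators Ppara and Ppargc1a. All 10 were found in the table, and all 10 passed the filter on low counts that left 13533 genes for testing. They were measured by RNA-seq in cultured primary cardiac fibroblasts of the mouse, the collagen-producing cells of the heart, in 4 libraries labelled GFP and 4 labelled OEIRF7. The comparison asks how the transcriptome of fibroblasts exposed to TGF-β differs when the transcription factor IRF7 is overexpressed.

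Every library came from cells treated with TGF-β (5 ng/ml, 24 h), a cytokine that turns fibroblasts into matrix-producing myofibroblasts, and no library of untreated cells was used here. Per the paper, the GFP cells carried an empty adenovirus vector. Its reagents list an adenovirus that expresses FLAG-tagged human IRF7 with EGFP from a CMV promoter, whereas the deposited description names an adeno-associated virus. The paper puts its mouse strains on a C57BL/6 J background, and sex and age of the mice these fibroblasts came from are not stated beside the libraries. The labels number 4 replicates per group, while the legend that covers this RNA-seq gives 3 biological replicates, and neither ties a library to a culture or an animal. The p-values therefore measure the spread between these libraries, whatever its source.

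Fatty acids enter mitochondria as carnitine esters. CPT1 in the outer membrane joins the acyl chain to carnitine and is blocked by malonyl-CoA, a carrier moves the ester across the inner membrane, and CPT2 returns the chain to coenzyme A. Repeated cycles of dehydrogenation, hydration, a second dehydrogenation and thiolysis then shorten the chain, with the acyl-CoA dehydrogenases at the first step and the trifunctional protein at the later steps for long chains. PPARα, a nuclear receptor for fatty acids, and its coactivator PGC-1α promote transcription of these genes in tissues that burn much fat, such as heart muscle and liver.

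The regulatory DNA just before the gene starts is shown because the nuclear receptors of this pathway bind repeats of the half-site AGGTCA and because Hadha and Hadhb share it. All 10 members matched an entry in the RefSeq promoter table (GRCm38.p6). Within 250 bases before the start, on either strand, AGGTCA was present in 4 of the 10, Cpt1a, Cpt1c, Acadm and Acadvl, and in 14.0% of the 32851 windows of the same length. Each is printed 5′ to 3′ on the strand of its gene, with the half-site or its reverse complement in capitals and up to 30 bases on each side. None of these stretches overlaps an annotated exon, and that of Cpt1a lies within the annotated span of the gene.
Cpt1a, chr19:3323177-3323242, plus strand: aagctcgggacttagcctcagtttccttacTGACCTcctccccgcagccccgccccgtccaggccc
Cpt1c, chr7:44974962-44975027, minus strand: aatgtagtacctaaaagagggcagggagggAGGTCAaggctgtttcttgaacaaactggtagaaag
Acadm, chr3:153944857-153944893, minus strand: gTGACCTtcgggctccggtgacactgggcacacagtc
Acadvl, chr11:70015480-70015545, minus strand: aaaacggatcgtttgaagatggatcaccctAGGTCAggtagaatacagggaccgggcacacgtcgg

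The full repeat AGGTCANAGGTCA was found before none of the members and in 0.0335% of all windows, and GAAANNGAAA, a core of interferon-stimulated response elements bound by interferon regulatory factors, was found before none of them and in 2.98% of all windows. GGGCGG, the GC box, stood before 7 of the 10 and in 32.7% of all windows. These matches describe letters in a window and are not measurements of binding. Hadha and Hadhb begin 86 bases apart on opposite strands of chromosome 5, and the 85 bases between them hold 2 GC boxes on the plus strand, in capitals, with a GC content of 69.4%.
Between Hadha and Hadhb, chr5:30155163-30155247, plus strand: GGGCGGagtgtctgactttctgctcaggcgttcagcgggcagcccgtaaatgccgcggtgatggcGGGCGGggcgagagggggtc

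Total counts per library lay between 24888589 and 27095611 in the GFP group and between 24454801 and 28658826 in the OEIRF7 group. Mouse Irf7 did not rise with the label. It had 107, 147, 92.0 and 126 CPM, counts scaled to library size, in the GFP libraries and 14.9, 14.5, 14.9 and 16.4 CPM in the libraries labelled OEIRF7 (log2 fold change -2.96, SE 0.12, adjusted p = 7.7e-11). The paper names adenovirus as the carrier of IRF7 for this RNA-seq. The adenovirus transgene is human per the paper, and counts on the mouse gene do not check it. The adeno-associated virus among the paper's reagents carries mouse Irf7 instead, and the paper describes its injection into mice. Reads of that transgene could count on the mouse gene, which was lower here. The paper and the deposited description name different viruses. Which virus these libraries carry was therefore not settled, and the direction of the labels stays unchecked. The summed level of 8 fibroblast markers was 13385 to 14101 CPM in the GFP libraries and 11785 to 12378 CPM in the libraries labelled OEIRF7. Of these markers, 5 were lower and 1 higher. Most of the sum came from the matrix genes Col1a1, Col1a2, Postn and Col3a1, with means of 4561, 3704, 2631 and 1648 CPM in GFP. Among the other markers, Dcn was not called (log2 fold change -0.02) and Pdgfra was higher (0.25). Ddr2 (-0.25) and Tcf21 (-1.33) were lower. Macrophage markers summed to 267 to 317 CPM and 324 to 362 CPM, with 3 of 6 higher, and mural cell markers to 65.7 to 72.4 CPM and 77.4 to 97.3 CPM, with 2 of 4 tested higher and 1 lower. Endothelial markers summed to 205 to 214 CPM and 202 to 225 CPM, with 2 of 6 higher and 1 lower. Of 8 markers of cardiomyocytes, which burn much fat, 1 passed the filter, Tnnt2, which was lower (11.3 and 7.78 CPM), and the list summed to 9.84 to 13.7 CPM and 7.7 to 9.77 CPM. Of 5 adipocyte markers 1 passed, Fabp4, which was higher, the list summed to 8.69 to 11.2 CPM and 13.1 to 14.1 CPM, and Cidec and Lep had no count in any library. The counts of called markers are to be read against all tested genes, of which 29.9% were lower and 29.0% higher at an edgeR adjusted p under 0.05. The part of the marker differences in the results for the members was not tested. In bulk RNA, fewer cells of a type and less RNA per cell cannot be told apart.

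Among the members, 7 of the 8 enzymes were lower in the libraries labelled OEIRF7 and 1, Acadvl, was not called, while of the regulators Ppargc1a was higher and Ppara was not called. The falls ran from 7.10% for Hadha to 30.7% for Cpt1a. By edgeR's quasi-likelihood test with Benjamini-Hochberg adjustment, the threshold throughout, 58.9% of all tested genes differed at an adjusted p under 0.05, 29.9% being lower and 29.0% higher, against 8 of the 10 members, 7 lower and 1 higher. A change past 1.5-fold as well was found in 18.9% of all tested genes and in 1 member, Ppargc1a. The CPM ranges of the groups were apart in 53.8% of all tested genes and in 8 of the 10 members. The median log2 fold change was -0.23 over the members and 0.00 over all tested genes.

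**Figure D1:**
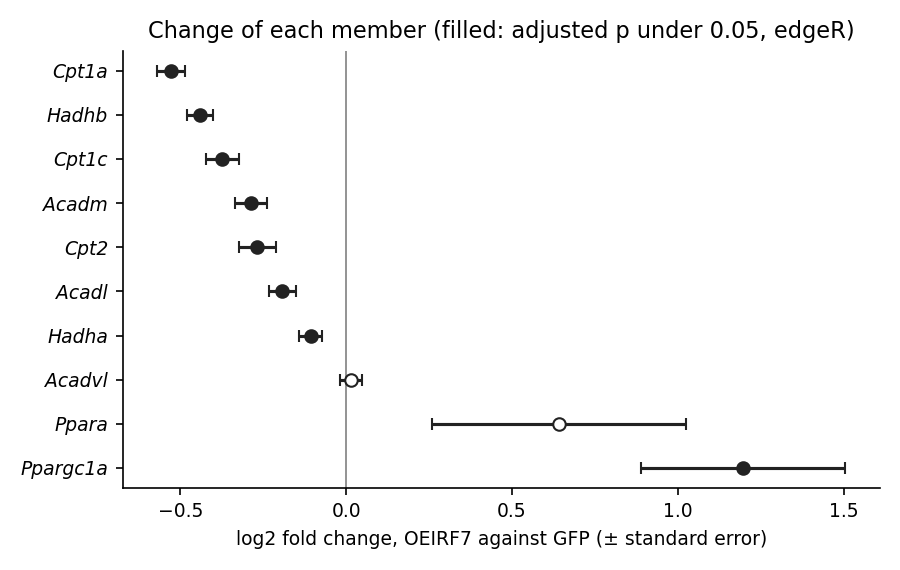
Log2 fold change of the libraries labelled OEIRF7 against GFP for each of the 10 members (x axis), with bars of 1 standard error, from edgeR on 4 against 4 libraries. Filled points have an adjusted p under 0.05; 7 enzymes lie left of 0, from -0.11 to -0.53, Acadvl lies at 0.01, and Ppara and Ppargc1a lie right of 0 with wide bars.

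Of the genes of the carnitine shuttle, Cpt1a (ENSMUSG00000024900, chr19:3322334-3385733, GRCm38), the liver-type and rate-limiting isoform, had 169, 174, 160 and 177 CPM in GFP libraries 1 to 4 and 122, 118, 111 and 122 CPM in OEIRF7 libraries 1 to 4. Every library labelled OEIRF7 was below every GFP library. The means were 170.3 ± 7.38 and 118 ± 5.19 CPM (SD, n = 4 each), a fall of 30.7% (log2 fold change -0.53, SE 0.042, edgeR adjusted p = 6e-08, exact two-sided permutation p = 0.0286, the smallest that 4 against 4 allows). The counts behind these values ran from 2818 to 4644 per library.

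Cpt1c (ENSMUSG00000007783, chr7:44959372-44974851), the isoform best known from brain, where it has little catalytic activity, had 56.1, 52.7, 59.1 and 60.0 CPM in the GFP libraries and 44.4, 42.0, 43.3 and 46.3 CPM in the libraries labelled OEIRF7. The groups did not overlap. Its log2 fold change was -0.37 (SE 0.049, edgeR adjusted p = 1.19e-05), a fall of 22.8%. An antisense gene, 6530437J22Rik, overlaps Cpt1c over 3875 bases, and since the strand setting of the counting is not stated, the reads of the pair cannot be told apart. Cpt1b, the muscle isoform, had 0 to 8 counts per library and was not tested.

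Cpt1c supplied 36.0%, 33.1%, 37.8% and 35.7% of the summed FPKM (fragments scaled to gene length and depth, a level per length) of the CPT1 isoforms in the GFP libraries and 37.3%, 37.1%, 40.2% and 39.1% in the libraries labelled OEIRF7. The shares overlapped between groups. Within libraries, the log2 ratio of Cpt1c to Cpt1a was -1.58 ± 0.12 in GFP and -1.42 ± 0.062 in OEIRF7, a difference of 0.16 that did not pass (exact permutation p = 0.0857, adjusted over 6 ratios 0.103).

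Cpt2 (ENSMUSG00000028607, chr4:107903981-107923610), the inner membrane enzyme, had 26.4, 26.2, 26.5 and 27.9 CPM in the GFP libraries and 22.3, 22.3, 20.7 and 23.6 CPM in the libraries labelled OEIRF7. The groups were apart, and the change was -0.27 on the log2 scale (SE 0.055, edgeR adjusted p = 0.00073), a fall of 17.0%. Within libraries, the log2 ratio of Cpt2 to Cpt1a went from -2.67 ± 0.056 to -2.40 ± 0.035, 1.20-fold, with no overlap (exact permutation p = 0.0286, adjusted 0.0572). It did not pass after adjustment, for which at least 4 of the 6 ratios compared would have had to reach the smallest p.

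**Figure D2:**
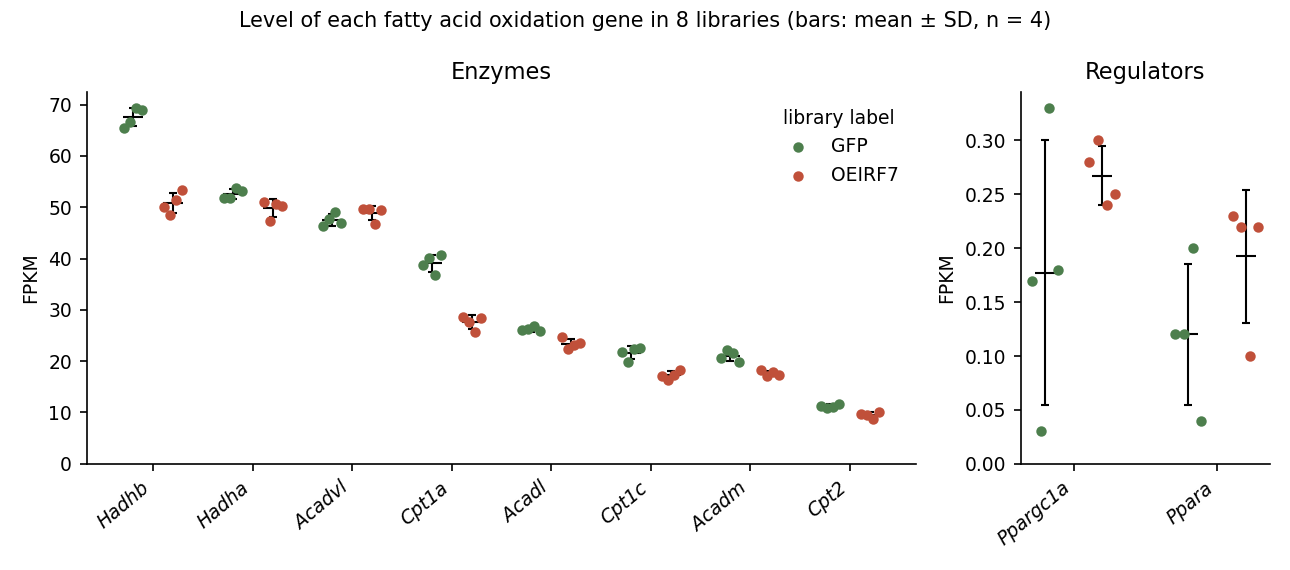
Level of each member in each of the 8 libraries, in FPKM per length on linear axes from 0, enzymes on the left and regulators on the right with an axis of their own. Points are libraries and bars the mean ± SD of 4; Hadhb is the highest of the enzymes in GFP at 67.6 FPKM, and the regulators lie below 0.4 FPKM.

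The acyl-CoA dehydrogenases divide the chain lengths among themselves: Acadvl takes very long chains, Acadl long and branched ones and Acadm medium ones. Acadm (ENSMUSG00000062908, chr3:153922357-153944632) had 42.6, 44.8, 44.6 and 40.8 CPM in the GFP libraries and 36.4, 33.8, 36.6 and 34.9 CPM in the libraries labelled OEIRF7, a log2 fold change of -0.29 (SE 0.048, edgeR adjusted p = 0.00012). Acadl (ENSMUSG00000026003, chr1:66830839-66863277) had 50.4, 50.6, 51.9 and 50.1 CPM in GFP and 46.6, 42.3, 44.3 and 44.6 CPM in OEIRF7, a log2 fold change of -0.19 (SE 0.041, edgeR adjusted p = 0.0010). Neither gene's groups overlapped, and the falls were 18.0% for Acadm and 12.5% for Acadl.

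Acadvl (ENSMUSG00000018574, chr11:70010183-70015411) had 102, 104, 107 and 103 CPM in the GFP libraries and 106, 106, 101 and 106 CPM in the libraries labelled OEIRF7. The groups overlapped, and the log2 fold change was 0.01 (SE 0.034, edgeR adjusted p = 0.73, exact permutation p = 0.571). Acadvl shares 2119 bases with Dvl2 on the opposite strand, a Wnt signalling gene that fell from 36.9 to 29.9 CPM (log2 fold change -0.31, SE 0.048, edgeR adjusted p = 5.9e-05), and how reads in the shared bases were divided is not stated. The log2 ratio of Acadvl to Acadm was 1.27 ± 0.051 in GFP and 1.57 ± 0.079 in OEIRF7 without overlap (difference 0.30, exact permutation p = 0.0286, adjusted 0.0572, not passed), and that of Acadl to Acadm overlapped at 0.23 ± 0.050 and 0.33 ± 0.037 (exact permutation p = 0.0571, adjusted 0.0857).

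The trifunctional protein is built from an α subunit, Hadha, with the hydratase and long-chain dehydrogenase activities, and a β subunit, Hadhb, with the thiolase. Hadhb (ENSMUSG00000059447, chr5:30155248-30184593, plus strand) had 134, 136, 142 and 142 CPM in the GFP libraries and 100, 96.7, 104 and 107 CPM in the libraries labelled OEIRF7. All 4 of the latter lay below all 4 of the former, and the mean fell from 138.3 ± 4.01 to 102.0 ± 4.51 CPM, by 26.3% (log2 fold change -0.44, SE 0.039, edgeR adjusted p = 2.1e-07).

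Hadha (ENSMUSG00000025745, chr5:30118304-30155162, minus strand), which starts from the same stretch of DNA in the other direction, had 211, 210, 217 and 216 CPM in the GFP libraries and 202, 187, 203 and 200 CPM in the libraries labelled OEIRF7. The groups were apart, but by less, and the mean fell by 7.10% (log2 fold change -0.11, SE 0.035, edgeR adjusted p = 0.017). This call was lost without OEIRF7 replicate 2 (-0.08, adjusted p = 0.058), with scaling by library size only (-0.08, adjusted p = 0.058) and in limma on log2(FPKM + 1) (-0.08, adjusted p = 0.074). Garem2, which overlaps the far end of Hadha by 75 bases on the opposite strand, was also lower (-0.39).

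The subunits were also compared within libraries. The log2 ratio of Hadha to Hadhb was 0.65, 0.63, 0.62 and 0.61 in GFP and 1.015, 0.95, 0.97 and 0.90 in OEIRF7. The ranges did not overlap. The difference of 0.33, a 1.26-fold higher ratio, had the smallest p possible but did not pass after adjustment (exact permutation p = 0.0286, adjusted 0.0572), and it stayed between 0.32 and 0.35 when any 1 library was left out.

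**Figure D3:**
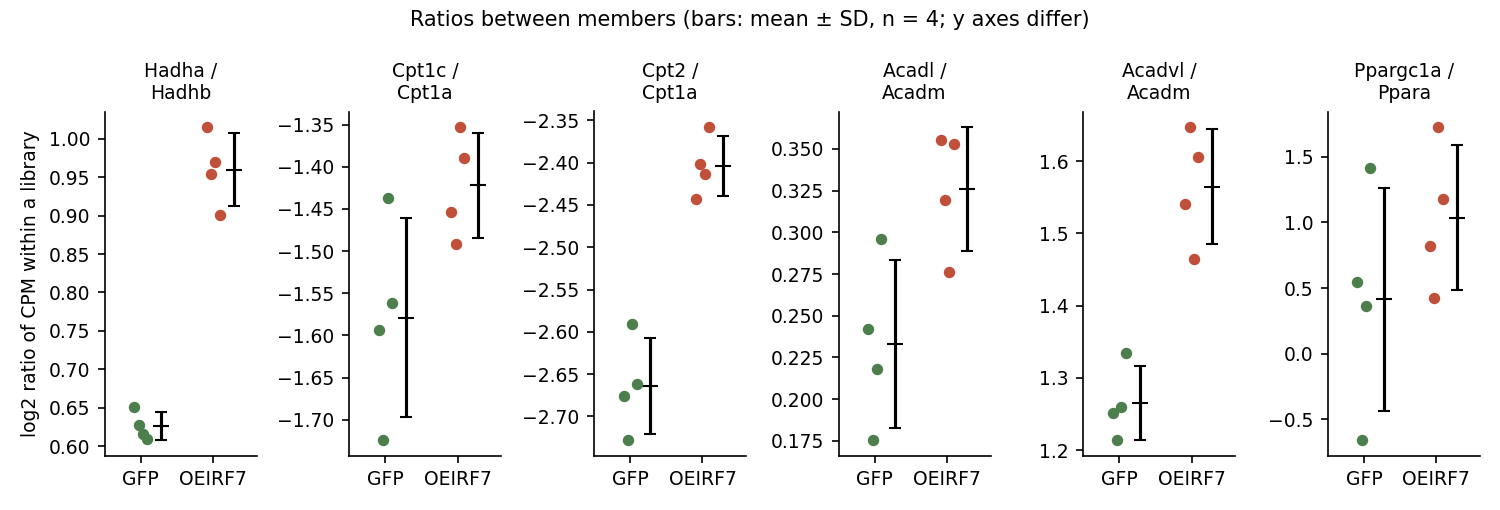
Log2 ratio of the CPM of member pairs within each library (points; 4 libraries per group; bars, mean ± SD; each pair has its own y axis). The libraries labelled OEIRF7 lie above all GFP libraries for Hadha to Hadhb, Cpt2 to Cpt1a and Acadvl to Acadm, and overlap them for the other 3 pairs.

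Both regulators were close to the limit of detection, so their values rest on few reads, and the CPM of the filter was reached by 2 GFP and 3 OEIRF7 libraries for Ppara and by 3 and 4 for Ppargc1a. Ppargc1a (ENSMUSG00000029167, chr5:51454250-51567726), the gene of PGC-1α, had 17, 5, 16 and 14 counts in the GFP libraries and 28, 29, 31 and 34 counts in the libraries labelled OEIRF7, or 0.504 ± 0.209 and 1.17 ± 0.165 CPM. In CPM the groups did not overlap. The level was 2.29-fold higher (log2 fold change 1.20, SE 0.31, edgeR adjusted p = 0.0037), and 0.94 on the log2 scale without GFP replicate 2, the library with 5 counts (adjusted p = 0.0096). In the deposited FPKM, by contrast, the groups overlapped, at 0.03 to 0.33 and 0.24 to 0.30, and limma on log2(FPKM + 1) did not call it (0.11, adjusted p = 0.23).

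Ppara (ENSMUSG00000022383, chr15:85734983-85802819), the receptor, had 11, 9, 12 and 4 counts in the GFP libraries and 15, 21, 8 and 14 counts in the libraries labelled OEIRF7. The groups overlapped, and the log2 fold change of 0.64 (SE 0.38) did not pass (edgeR adjusted p = 0.16, exact permutation p = 0.171). With so few counts, the test did not decide whether Ppara changed. The log2 ratio of Ppargc1a to Ppara overlapped as well, at 0.42 ± 0.85 and 1.04 ± 0.55 (exact permutation p = 0.257, adjusted 0.257).

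Levels of the members were compared per length, in FPKM. In GFP the order was Hadhb at 67.6 ± 1.84, Hadha at 52.6 ± 0.954, Acadvl at 47.5 ± 1.15, Cpt1a at 39.1 ± 1.69, Acadl at 26.2 ± 0.460, Cpt1c at 21.7 ± 1.30, Acadm at 21.1 ± 1.0 and Cpt2 at 11.3 ± 0.323 FPKM, followed by Ppargc1a at 0.178 and Ppara at 0.12 FPKM. Among neighbours in this order, the ranges of Cpt1c and Acadm and of Ppargc1a and Ppara overlapped. In OEIRF7 the top of the order closed up, with Hadhb at 50.8 ± 2.02, Hadha at 49.8 ± 1.76 and Acadvl at 48.9 ± 1.39 FPKM, whose neighbouring ranges overlapped, while Cpt1a had 27.6 ± 1.34 FPKM. Acadm (17.7) and Cpt1c (17.3) changed places there, within overlapping ranges. The summed FPKM of the 8 enzymes was 282, 285, 291 and 290 in the GFP libraries and 249, 239, 242 and 250 in the libraries labelled OEIRF7, so that the groups were apart on this scale too.

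The wider pathway was followed with 6 lists that leave the members out, 82 genes in all. Of the 80 tested, 29 were lower, 14 higher and 37 not called, with a median log2 fold change of -0.08. The share lower, like the share higher, is to be read against the 29.9% and 29.0% of all tested genes.

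Among 10 genes of fatty acid activation and carnitine transfer, 9 were tested, and 2 were higher and 2 lower (median 0.08). The acyl-CoA synthetases Acsl5 and Acsl4, which charge free fatty acids with coenzyme A, rose from 87.4 ± 3.23 to 132.8 ± 4.2 CPM (log2 fold change 0.60, edgeR adjusted p = 5.8e-09) and from 227 ± 7.67 to 281.5 ± 12.2 CPM (0.31, adjusted p = 6.4e-06). The carnitine acyltransferases of peroxisomes and short chains, Crot and Crat, fell by 0.35 and 0.23 on the log2 scale (edgeR adjusted p = 2.8e-05 and 0.0007). Slc25a20, the carnitine-acylcarnitine carrier between Cpt1a and Cpt2, had 35.95 and 35.9 CPM (adjusted p = 0.98).

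Among 19 other genes listed with mitochondrial β-oxidation, 11 were lower and 0 higher (median -0.14). Not all of them are enzymes of the cycle itself, since the list also holds electron transfer genes and acyl-CoA thioesterases. The count of higher genes was also 0 in DESeq2 and at an unadjusted edgeR p under 0.05, and 1, Acot2 (0.28, adjusted p = 0.0488), without OEIRF7 replicate 3. Decr1, the reductase needed for unsaturated chains, had 37.5, 44.0, 39.2 and 38.7 CPM in the GFP libraries and 14.8, 13.1, 12.1 and 15.9 CPM in the libraries labelled OEIRF7. The groups did not overlap, and the fall was 2.86-fold (log2 SE 0.080, edgeR adjusted p = 8.6e-10), beside 1.44-fold for Cpt1a. Hadh, the short-chain partner of Hadha in the second dehydrogenation, fell from 32.9 to 22.7 CPM (log2 fold change -0.54, adjusted p = 1.4e-05). Acad8 and Acad10, relatives of the member dehydrogenases, fell by 0.49 and 0.47 on the log2 scale (edgeR adjusted p = 1.4e-05 and 0.008).

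Peroxisomes shorten very long and branched chains before mitochondria finish them. Of 16 peroxisomal genes, 6 were lower and 1 higher (median -0.15). Acox2, the oxidase of branched chains and bile acid precursors, fell from 1.81 to 0.517 CPM (log2 fold change -1.80, SE 0.26, edgeR adjusted p = 2.5e-05). Hacl1, which splits branched chains, and Acox3, another oxidase, fell by 0.35 and 0.31 (adjusted p = 0.00067 and 0.00018), and limma on log2(FPKM + 1) did not call Acox3 (-0.20, adjusted p = 0.107). Pecr, a reductase of chain elongation, was the 1 higher gene (0.33, edgeR adjusted p = 0.018), and its call was lost without OEIRF7 replicate 1 (adjusted p = 0.056) or replicate 4 (adjusted p = 0.053). Acaa1a and Acaa1b, near-identical copies in this list, are uncertain, as reads may be split between them.

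Malonyl-CoA, which blocks Cpt1a, is made by acetyl-CoA carboxylases that the kinase AMPK switches off. Of 9 genes of this control, 4 were lower and 2 higher (median -0.11). The catalytic AMPK subunit Prkaa1 rose from 50.4 ± 1.29 to 80.9 ± 1.71 CPM (log2 fold change 0.68, edgeR adjusted p = 1.0e-09). The other catalytic subunit, Prkaa2, was not called (-0.135, edgeR adjusted p = 0.154). The β subunits moved in opposite directions, Prkab2 falling from 72.2 ± 2.87 to 32.7 ± 1.68 CPM (-1.14, adjusted p = 7.8e-11) and Prkab1 rising from 19.8 to 24.4 CPM (0.30, adjusted p = 0.00038). Prkab2 made up 58.8%, 58.5%, 60.0% and 58.4% of the summed FPKM of the β subunits in GFP and 36.2%, 34.7%, 32.0% and 35.1% in OEIRF7. The opposite calls of Prkab2 and Prkab1 in these same data fixed the direction of this share beforehand. The γ subunits Prkag2 (-0.55, edgeR adjusted p = 8.2e-07) and Prkag1 (-0.11, adjusted p = 0.018) were lower, the latter losing its call without GFP replicate 1 (adjusted p = 0.055) or OEIRF7 replicate 1 (adjusted p = 0.067). Acacb, the carboxylase at the mitochondrial surface, fell from 4.19 to 2.70 CPM (-0.63, edgeR adjusted p = 0.0017), a call not made by limma on log2(FPKM + 1) (adjusted p = 0.096). The other carboxylase, Acaca, had far more counts, at 200.6 and 195.4 CPM, and was not called (-0.04, edgeR adjusted p = 0.39).

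Among 16 nuclear receptors and coregulators around Ppara and Ppargc1a, 4 were higher and 3 lower (median 0.02). Nrip1, a corepressor of oxidative genes, rose from 34.9 to 48.6 CPM (log2 fold change 0.48, edgeR adjusted p = 2.9e-07). Pprc1, a relative of PGC-1α, rose from 58.7 to 72.2 CPM (0.30, adjusted p = 3.1e-05), and Ncor1, another corepressor, fell from 200.8 to 168.3 CPM (-0.26, adjusted p = 6.6e-06). The other calls were small or fragile. Ppargc1b, the closest paralog of Ppargc1a, had 0.301 and 0.599 CPM with overlapping groups (0.98, edgeR adjusted p = 0.033). It reached the CPM of the filter in 1 GFP and 4 OEIRF7 libraries, and so was tested only through the group where it was higher. It was not called by DESeq2 (adjusted p = 0.090) or without any 1 of 6 libraries, all but replicate 4 of each group (adjusted p up to 0.097). Pparg had 3.11 and 2.35 CPM (-0.40, edgeR adjusted p = 0.039), was not called by DESeq2 (adjusted p = 0.076), and lost its call without any 1 of 6 libraries, all but OEIRF7 replicates 1 and 4 (adjusted p up to 0.12). Nrf1 (0.18, adjusted p = 0.015) lost its call without GFP replicate 2 (adjusted p = 0.0501), and Ppard (-0.22, adjusted p = 0.0049) in limma on log2(FPKM + 1) (adjusted p = 0.063).

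Of 13 genes known to respond to PPARs in other tissues, 12 were tested, and 5 were higher, 3 lower and 4 not called (median 0.30). Angptl4, a secreted inhibitor of lipoprotein lipase, had 9.03, 9.33, 8.75 and 8.81 CPM in the GFP libraries and 68.3, 78.8, 74.1 and 68.3 CPM in the libraries labelled OEIRF7, 8.06-fold more (log2 fold change 3.01, SE 0.061, edgeR adjusted p = 1.9e-13). The fatty acid binding protein Fabp3 rose from 6.63 to 13.0 CPM (0.97, edgeR adjusted p = 8.3e-07) and the fatty acid transporter Cd36 from 15.7 to 27.2 CPM (0.79, adjusted p = 1.0e-07). Ucp2, a mitochondrial carrier, and Plin2, a coat protein of lipid droplets, rose by less (0.32 and 0.29). Among the lower genes were Pdk4, a kinase that restrains pyruvate oxidation (19.7 to 11.4 CPM, -0.79, edgeR adjusted p = 2.3e-06), and Vnn1, a pantetheinase (-0.94, adjusted p = 8.8e-09).

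**Figure D4:**
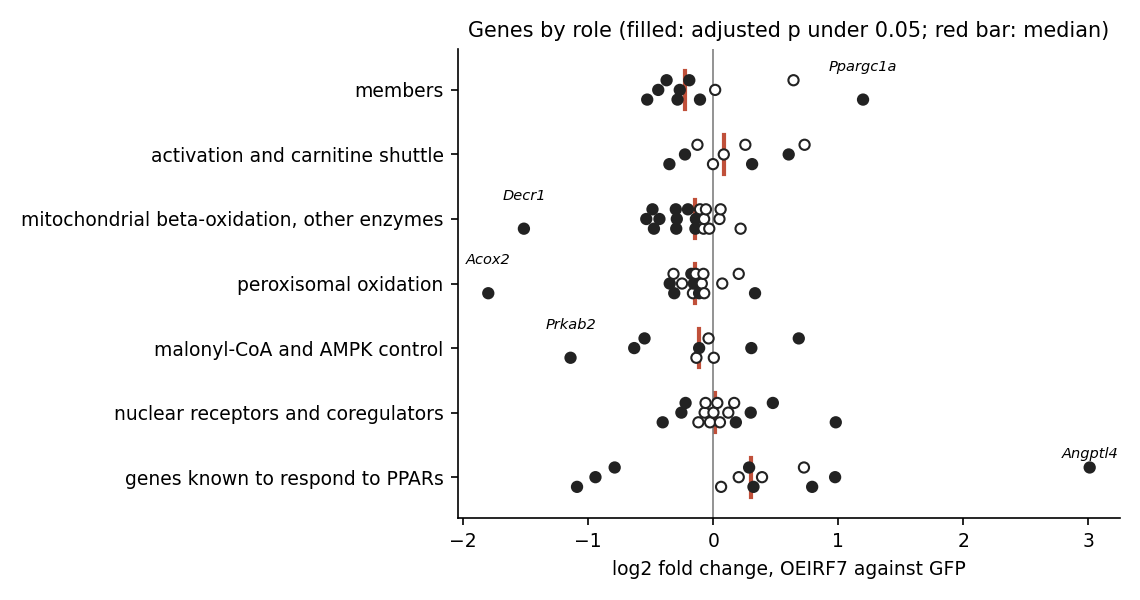
Log2 fold change (x axis) of each tested gene in the members and in 6 lists of related genes, 1 point per gene, filled where the adjusted p was under 0.05, with red bars at the medians and no meaning to height within a list. The members and the other mitochondrial enzymes lie mostly left of 0, and Angptl4 lies apart at 3.01.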

How the data were processed

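Per the paper's methods, the authors used Trimmomatic for trimming and HISAT2 for mapping to GRCm38, the build of the submitters' processing notes, and deposited raw counts per gene from HTSeq-count, without normalization. The authors also deposited FPKM from Cufflinks, scaled for gene length and depth and rounded to 2 decimals. Tool versions and the strand setting of the counting are not given in the sources used here, and the kits named by the labels are not those of the paper. Group mean FPKM, fold changes and p-values of the authors' own comparison were not used. No value column lacked a sample. In 121 symbols the letters GFP stood in place of others, and these were restored by identifier. Of 22274 identifiers, 22219 were named by the reference annotation, and 3816 genes had no count.

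The counts were tested with edgeR 4.0.16 (R 4.3.3): filterByExpr (about 0.393 CPM in at least 4 libraries), TMM scaling (factors 0.989 to 1.01), then glmQLFit and glmQLFTest over 13533 genes with Benjamini-Hochberg adjustment. Log2 CPM used a prior count of 2. Single values and within-library ratios had exact two-sided permutation tests in SciPy 1.17.1, with p adjusted over the 6 ratios. All pairs of replicates differed by more than sampling noise (chi-square per degree of freedom 2.69 to 8.67). Alternatives were DESeq2 1.42.0, other scalings and filters, the replicate number as a block, limma 3.58.1 on log2(FPKM + 1) and log2(FPKM + 0.1), and leaving out each library. The fits were tested on simulated data.

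Named are all members and up to 4 genes per list with the largest called change above 1 CPM. Any gene behind a count of 5 or fewer is named too. So are Irf7, genes that start within 1000 bases of a member on the other strand, and cell type markers. Genes overlapping a member, Slc25a20, Cpt1b, Acaca, Prkaa2 and genes called only under an alternative were chosen after their values were seen. Members and lists were chosen with earlier results of these data known. Promoter sequences are from RefSeq (GRCm38.p6) and gene coordinates from the GRCm38 annotation. The values of 1 gene of these lists are not reported here.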

Additional observations from a re-analysis of the deposited data

Results flagged for a closer look

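Among 100 groups of 4 libraries, 3 held a library far from the other 3 by Dixon's test applied to the gap over the whole range, fewer than the 1 in 20 groups that chance gives. Acadvl had 101.2 CPM in OEIRF7 replicate 3 and 106.2 to 106.3 CPM in the others (gap over range 0.969). Acad10 had 4.46 CPM in OEIRF7 replicate 1 and 3.14 to 3.33 CPM in the others (gap over range 0.860). Prkaa1 had 83.5 CPM in OEIRF7 replicate 2 and 79.8 to 80.4 CPM in the others (gap over range 0.839).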

How the results depend on the processing

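No result reversed. Among the values of members under the alternatives, 170 kept their direction and their side of the threshold and 8 lost their call, 5 of Hadha and 3 of Ppargc1a. Hadha was -0.0791 with scaling by library size only (adjusted p = 0.058) and -0.0780, -0.0794 and -0.0780 in limma on log2(FPKM + 1), log2(FPKM + 0.1) and without the FPKM filter (adjusted p = 0.074, 0.078 and 0.070), and ranged from -0.119 to -0.0803 with 1 library left out. Ppargc1a was 0.11, 0.52 and 0.11 in the 3 limma fits (adjusted p = 0.23, 0.20 and 0.23), and 0.94 to 1.33 with 1 library left out. Acox2, -1.80 in counts, was -0.38 in limma on log2(FPKM + 1), where both unit and pseudocount differ, and its FPKM overlapped between groups (0.58 to 0.83 and 0.17 to 0.61). A minimum of 10 counts in every library removed Ppargc1a and Ppara. The count of higher genes in activation and carnitine transfer was 4 with library size only (with Acsl6 and Slc22a5) and 4 in limma with either pseudocount (with Acsl3 and Slc22a5). With 1 library left out, it ranged from 0 to 1 in other mitochondrial enzymes and from 0 to 1 in peroxisomal genes. The causes were not tested. Whether replicate numbers pair the libraries was not settled, and the main test left pairing out. Correlations of same-numbered deviations were low, at 0.0792, 0.0953, 0.138 and 0.104, but every library correlated best with its own number. With the replicate block 4057 genes were higher and 4154 lower against 3924 and 4045, Cpt1a was -0.53, and no member changed its call. Depth limits genes near or under 1 CPM.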

Other observations

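The table's own KEGG column gives a wider view, with terms chosen after values were seen. Both terms hold members and are not independent of them. Of 42 tested genes under fatty acid degradation, 8 of the 53 listed being members, 21 were lower (50.0%) and 6 higher (14.3%). The median log2 fold change was -0.11. Of 62 tested genes under the PPAR signaling pathway, 6 of the 92 listed being members, 19 were lower (30.6%) and 15 higher (24.2%), with a median of 0.05. Over all tested genes, 29.9% were lower and 29.0% higher, close to the shares of the PPAR term. Among the long-chain acyl-CoA synthetases, Acsl4 and Acsl5 were the ones called higher in these same data, which fixed the direction of their joint share beforehand. Together they made up 66.5%, 66.5%, 68.5% and 68.0% of the summed FPKM of 5 paralogs in the GFP libraries. In the libraries labelled OEIRF7 they made up 70.6%, 69.8%, 75.3% and 68.9%. The ranges did not overlap but came close, 68.5% against 68.9%.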
